A study of Mus musculus with 2 samples.

Results

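The 8 genes described here encode the cannabinoid receptor CB1 (Cnr1) and 7 enzymes that make or break down endocannabinoids (Dagla, Daglb, Mgll, Abhd6, Abhd12, Napepld and Faah). They were taken by symbol from the deposited tables, which list 55536 annotated genes, 22028 of them protein-coding. The RNA was from left cerebral cortex tissue of 2 males aged 36 days, both of the strain B6CASTF1/J, an F1 hybrid of a B6 and a CAST parent. The labels number the animals separately and call them biological replicates 1 and 2, but give them 1 shared donor identifier. Each mouse gave 1 library of total RNA, made from 300 ng with ERCC spike-in RNAs (synthetic transcripts of known amount), and the labels name a spike-in profile for stranded libraries depleted of ribosomal RNA. The labels name no treatment and put both mice in 1 group, so no condition was compared and no p-value was computed. Errors are SDs over the 2 mice, and intervals on counts cover counting error only.

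Endocannabinoids are lipid messengers that neurons make on demand from membrane phospholipids. In the cortex, 2-arachidonoylglycerol (2-AG) is formed mainly in postsynaptic neurons by diacylglycerol lipase, crosses the synapse backwards and acts on CB1 receptors of axon terminals, where CB1 couples to Gi/o proteins and lowers transmitter release. It is then hydrolysed by monoacylglycerol lipase and, to a smaller extent, by ABHD6 and ABHD12. Anandamide, the other main endocannabinoid, is released from N-acyl-phosphatidylethanolamine by NAPE-PLD and other routes and is hydrolysed by fatty acid amide hydrolase.

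The coding bases around the site each protein is known for are shown first, because they separate the 8 genes into 4 kinds of protein. All were read from the GENCODE M21 transcript given with each gene, 5′ to 3′, with 18 bases on either side of the capitals. In the 5 lipid hydrolases of the serine type the capitals mark the Gly-x-Ser-x-Gly pattern, whose middle codon is the catalytic serine (codon 472 in Dagla-201, 443 in Daglb-201, 122 in Mgll-204, 148 in Abhd6-202 and 246 in Abhd12-201). In Cnr1 they mark the Asp-Arg-Tyr motif of G protein-coupled receptors (codons 214 to 216), in Napepld the zinc-binding His-x-His-x-Asp-His pattern (codons 185 to 190) and in Faah the glycine- and serine-rich stretch of the amidase signature family (codons 215 to 220).
Cnr1-201: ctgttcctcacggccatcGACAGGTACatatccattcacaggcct
Dagla-201: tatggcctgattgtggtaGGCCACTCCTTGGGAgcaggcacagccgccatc
Daglb-201: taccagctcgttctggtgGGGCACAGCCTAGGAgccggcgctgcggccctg
Mgll-204: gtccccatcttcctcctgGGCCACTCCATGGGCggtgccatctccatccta
Abhd6-202: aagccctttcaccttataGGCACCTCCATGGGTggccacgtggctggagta
Abhd12-201: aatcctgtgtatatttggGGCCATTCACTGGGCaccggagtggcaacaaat
Napepld-202: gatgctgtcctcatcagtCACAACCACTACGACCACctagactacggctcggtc
Faah-201: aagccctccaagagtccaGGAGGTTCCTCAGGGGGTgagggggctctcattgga

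The Gly-x-Ser-x-Gly pattern is short and also occurs elsewhere, and a search found it 3 times in Dagla-201, 2 times in Mgll-204 and in Abhd12-201, and 1 time in Daglb-201 and in Abhd6-202. Of 21784 protein-coding genes with a usable coding sequence, 18.3% hold it at least 1 time and 8.10% hold Asp-Arg-Tyr. The other patterns are rare, since 0.165% of those genes hold the zinc-binding pattern of Napepld and 0.161% hold the amidase stretch of Faah. A match of letters is a description of the sequence and no measure of activity.

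All 8 genes were expressed in both mice at a TPM of at least 1. TPM is a transcript level scaled to gene length and to a fixed sum over the library, and the values below are from the deposited gene table made from alignments unless the table made directly from the reads is named. At that threshold 12902 of the 22028 protein-coding genes passed (58.6%). The levels of the 8 genes spanned a wide range, with Abhd12 at the top and Napepld at the bottom. The median of the 8 mean TPM values was 41.2, against 15.9 over the 12902 expressed genes. In bulk tissue, fewer cells of a type and less RNA per cell cannot be told apart.

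Cnr1, the receptor (ENSMUSG00000044288.6, chr4:33924593-33948831 in mm10, plus strand), had a TPM of 61.7 in replicate 1 and 52.8 in replicate 2 (57.2 ± 6.33, SD, n = 2), from 6500 and 5196 expected counts. It ranked 1880 from the top among the 12902 expressed genes. The mice differed more for Cnr1 than for any other member in TPM units, and the deposited interval of replicate 1 (57.2 to 62.5) lay above that of replicate 2 (48.7 to 53.9).

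The diacylglycerol lipases, which form 2-AG, differed in level. Dagla (ENSMUSG00000035735.10, chr19:10245265-10304877, minus strand), the form known to supply most 2-AG in the adult mouse brain, stood at 42.6 in replicate 1 and 40.8 in replicate 2 (41.7 ± 1.29, 4576 and 4116 counts). Daglb (ENSMUSG00000039206.13, chr5:143464584-143505942, plus strand), known for its part in macrophages and microglia in mice, stood at 11.7 and 14.4 (13.0 ± 1.92, 1020 and 1150 counts). Both mice had more Dagla than Daglb, and the values of the genes did not overlap. On the scale of log2(TPM + 1), Dagla over Daglb was 1.78 in replicate 1 and 1.44 in replicate 2, a mean of 1.61 ± 0.24 or 3.05-fold. That is larger than 0.46, a bound that 95% of genes of like abundance kept within when the mice were compared. The bound measures the spread of single genes between the mice. It does not measure bias between 2 genes within a library, and the share of other gene pairs that pass it was not counted.

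Of the 2-AG hydrolases, Abhd12 and Mgll were the most abundant members, while Abhd6 came sixth of the 8. Mgll (ENSMUSG00000033174.17, chr6:88724412-88828360, plus strand), which encodes monoacylglycerol lipase, had a TPM of 85.2 in replicate 1 and 85.3 in replicate 2 (85.2 ± 0.127, 5818 and 5054 counts). Abhd12 (ENSMUSG00000032046.15, chr2:150832493-150904741, minus strand), an enzyme with its active site outside the cytosol that also hydrolyses lysophosphatidylserine and whose loss causes a neurodegenerative disease in humans, reached 133 and 131 (132 ± 1.29, 4534 and 4199 counts) and ranked 613 from the top. Abhd6 (ENSMUSG00000025277.14, chr14:8002902-8056763, plus strand), a membrane enzyme known from postsynaptic sites, had 34.8 and 32.6 (33.7 ± 1.51, 1301 and 1166 counts). The 3 genes kept the same order in both mice. Mgll over Abhd6 was 1.27 and 1.36 on the log2(TPM + 1) scale (1.31 ± 0.06, 2.49-fold), and Mgll over Abhd12 was -0.63 and -0.61 (-0.62 ± 0.02, 0.649-fold). Both exceeded that bound on the spread between the mice, which was 0.33 for the first pair and 0.27 for the second.

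The 2-AG hydrolase gene Mgll was also more abundant than the synthase gene Dagla. This does not hold for every 2-AG hydrolase, since Abhd6 (mean TPM 33.7) lay below Dagla (41.7). Mgll over Dagla was 0.98 in replicate 1 and 1.05 in replicate 2 on the log2(TPM + 1) scale (1.01 ± 0.05, 2.02-fold, against 0.33 between the mice). The receptor gene lay below Mgll, with Cnr1 over Mgll at -0.46 and -0.68 (-0.57 ± 0.16, 0.673-fold, against 0.31). These are ratios of RNA and give no ratio of protein or of enzyme activity.

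The anandamide genes lay far apart. Napepld (ENSMUSG00000044968.16, chr5:21662901-21701396, minus strand), the phospholipase of the direct route, was the lowest member, with a TPM of 6.19 in replicate 1 and 6.80 in replicate 2 (6.50 ± 0.431) from 470 and 479 counts. Faah (ENSMUSG00000034171.13, chr4:115967145-116017926, minus strand), the hydrolase, stood at 39.9 and 41.4 (40.7 ± 1.09, 2321 and 2265 counts). Faah over Napepld was 2.51 and 2.44 on the log2(TPM + 1) scale, a mean of 2.48 ± 0.05 or 5.56-fold, against 0.53 between the mice. This ratio falls when only protein-coding transcripts are counted, as described with the Faah transcripts.

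By mean TPM the order was Abhd12, Mgll, Cnr1, Dagla, Faah, Abhd6, Daglb and Napepld. Of the 7 pairs of neighbours in this order, 6 did not overlap between the mice. The order was set by the same values, which favours such separation. The share of neighbouring pairs apart over all expressed genes was not counted, so this count does not set the members apart. Dagla and Faah did, since Faah of replicate 2 lay above Dagla of replicate 2. The largest steps between neighbours lay at the lower end, where Abhd6 averaged 2.58 times Daglb and Daglb averaged 2.01 times Napepld. Among the 12902 expressed genes, Daglb ranked 7240 and Napepld 9667 from the top, below the middle of the list, while the other 6 members ranked between 613 and 3459.

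**Figure D1:**
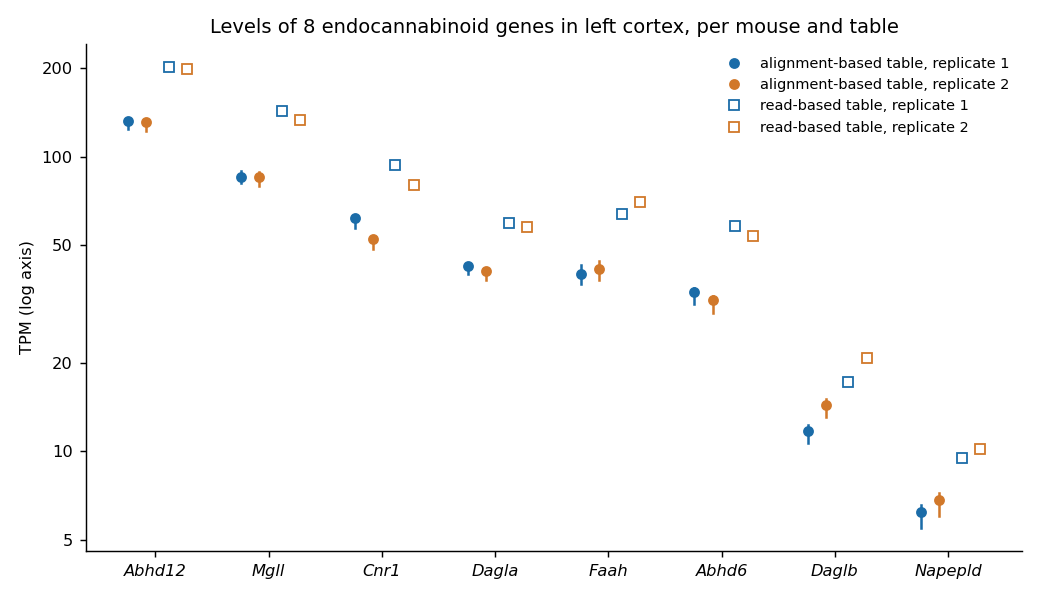
TPM of the 8 genes on a log axis for replicate 1 (blue) and replicate 2 (orange), from the alignment-based gene table (filled circles, with bars for the deposited interval) and from the read-based table summed per gene (open squares). Abhd12 was highest and Napepld lowest in both tables, and the read-based values lay above the alignment-based ones for all 8 genes.

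A separate quantification made directly from the reads gave higher values for all 8 members. The median ratio of the alignment-based to the read-based TPM was 0.657 over the members, against 0.647 over all expressed protein-coding genes. Read-based TPM was 93.9 in replicate 1 and 80.2 in replicate 2 for Cnr1, 143 and 134 for Mgll, and 202 and 199.5 for Abhd12. The order differed between the tables in the middle. Faah (64.0 and 70.3) lay above Dagla (59.8 and 57.8) with no overlap, and Dagla overlapped with Abhd6 (58.1 and 53.9).

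Between the mice the members differed about as much as other genes. After TMM scaling, which brings the libraries to a common scale over most genes, Cnr1 gave the largest log2 ratio of replicate 1 over replicate 2, at 0.29 (95% counting interval 0.24 to 0.34), a 1.22-fold difference. It was the only member over the 95th percentile of genes with a like count (0.27). Daglb lay the other way, at -0.21 (-0.33 to -0.08), short of its percentile of 0.28. Mgll gave 0.17 (0.11 to 0.22), Abhd6 0.12 (0.01 to 0.24), Dagla 0.12 (0.06 to 0.18) and Abhd12 0.08 (0.02 to 0.14). For Faah (0.00, -0.08 to 0.08) and Napepld (-0.06, -0.25 to 0.12) the interval held 0. None of the 8 passed a log2 ratio of 0.5 in size, against 2.26% of the 11728 protein-coding genes averaging 100 counts or more. None passed 1 either, against 0.247%. With shares this small, none of 8 does not set the members apart. The median size of the log2 ratio, sign left out, was 0.12 over the members and 0.10 over the 11728 genes.

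With its sign kept, the median log2 ratio over the members was 0.10, against 0.03 over the 11728 genes, and 6 of 8 were higher in replicate 1. This direction depends on the scaling, since 5 of 8 were higher in replicate 1 with library totals and 0 of 8 with spike-in totals. The share of all genes higher in replicate 1 was not counted, so these counts do not set the members apart. Spike-in scaling moved the median of all genes by -0.40, to -0.37. Relative to that median the members lay 0.07 higher under either scaling. This could not have come out otherwise, since a change of scaling shifts the log2 ratios of all these genes nearly alike. Cell type markers also differed between the mice. Over the 23 with enough counts the median log2 ratio was 0.16, with a range of -0.27 to 0.49. Mbp, a myelin gene of oligodendrocytes, had a TPM of 576 in replicate 1 and 497 in replicate 2 and a log2 ratio of 0.32, and the myelin gene Mog had 27.6 and 21.3 and a ratio of 0.44. The excitatory neuron marker Slc17a7 had 599 and 563 and a ratio of 0.15, and Neurod6 had 1130 and 788 expected counts and a ratio of 0.49. The striatal markers lay the same way, with Drd1 at 0.24, Adora2a at 0.35 and Gpr6 at 0.49. The endothelial marker Cldn5 (-0.27) and the microglial marker Cx3cr1 (-0.20) lay the other way. The remaining markers of these cell types did not share this, with ratios of -0.004 for endothelium and 0.07 and 0.18 for microglia. No direction can thus be given for either cell type. Cck, which cortical excitatory neurons express as well as a class of interneurons known for high Cnr1, had a ratio of 0.19, and Vip, of another interneuron class, had a ratio of 0.08. The 3 general inhibitory markers had ratios of -0.07 to 0.01. The part of all these markers in the ratio of Cnr1 was not tested.

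**Figure D2:**
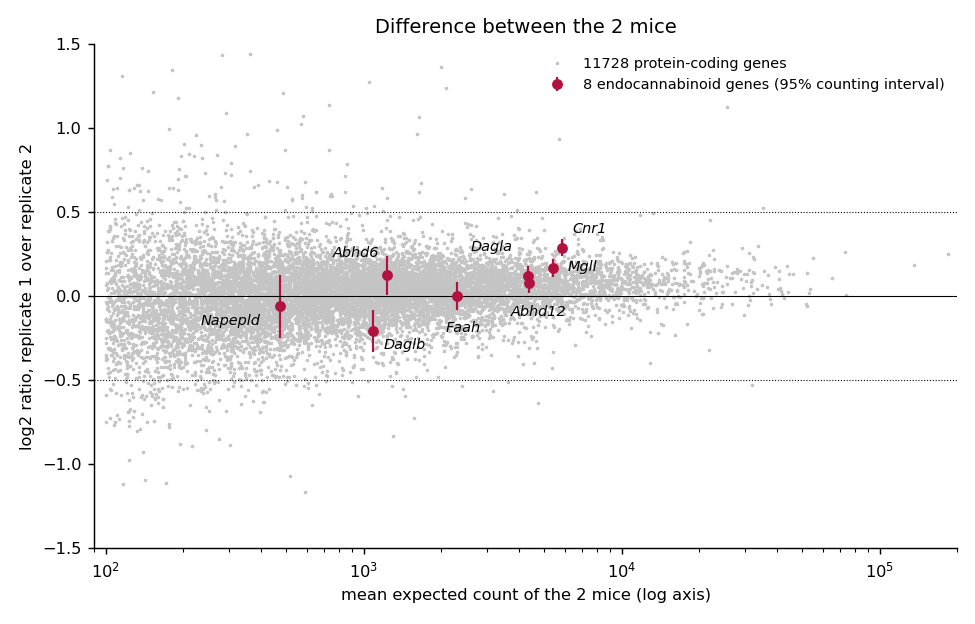
Log2 ratio of TMM-scaled expected counts, replicate 1 over replicate 2, against the mean expected count on a log axis, for the 11728 protein-coding genes averaging 100 counts or more (grey) and the 8 members (red, with 95% counting intervals). Dotted lines mark a log2 ratio of 0.5 in either direction, all 8 members lie between them, and 8 of the grey points fall outside the axes (11720 are drawn).

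The tissue label was checked with 26 markers, of which 23 were expressed. Markers of neurons, astrocytes (summed TPM 976 and 897), oligodendrocytes, microglia (64.2 in both mice) and endothelium (38.8 and 45.3) were all at a TPM of at least 1, and so were the 3 striatal markers. The cerebellar genes were near 0 (0.07 and 0.02 summed, with Barhl1 at 0 counts in both), and of the choroid plexus pair Folr1 was below 1 (0.58 and 0.52) and Kl just above it (1.30 and 1.43). Expected counts summed to 29915463 for replicate 1 and 27988085 for replicate 2.

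The transcripts behind these levels differed in kind from gene to gene. In Dagla, Abhd6 and Napepld nearly the whole TPM lay on protein-coding transcripts. In Faah, by contrast, a large part of the TPM lay on transcripts annotated as retaining an intron. For 7 of the 8 genes the leading transcript was the same in both tables, against 75.9% of 11676 expressed protein-coding genes. Mgll was the exception. The share of a transcript is given as the percent of its gene's TPM.

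**Figure D3:**
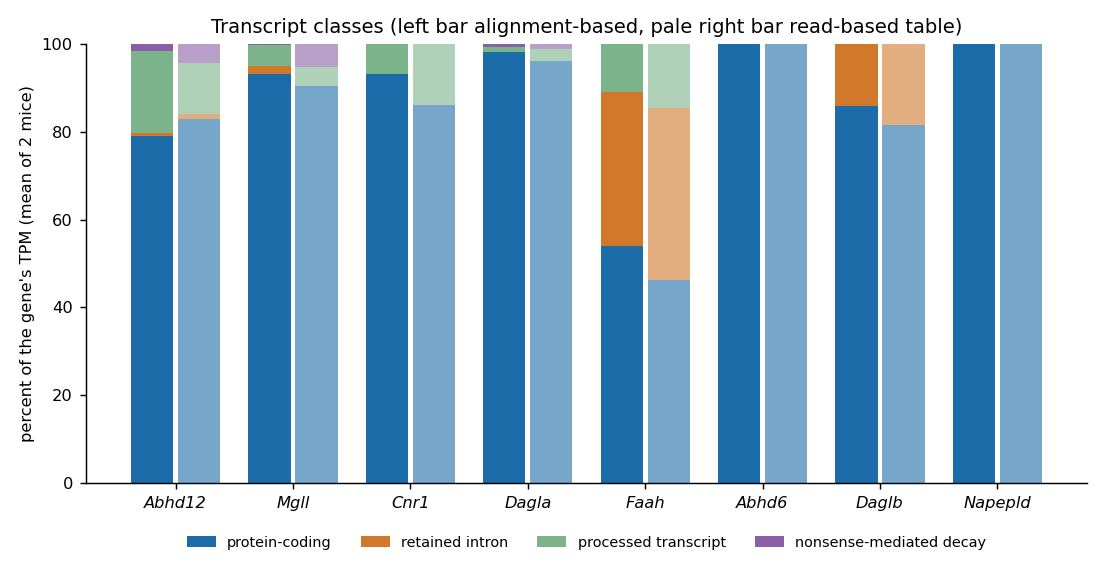
Percent of each gene's TPM on 4 annotated classes of transcript, as the mean of the 2 mice, from the alignment-based table (left bar) and the read-based table (pale right bar). Faah holds the largest retained-intron share of the 8 genes in both tables, and Abhd12 the largest processed-transcript share in the alignment-based one.

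Cnr1 has 2 coding transcripts with the same coding sequence of 1419 bases and different first exons. Cnr1-201 held 82.2% in replicate 1 and 83.7% in replicate 2, and Cnr1-202, whose first exon lies further downstream (chr4:33926202-33926694), held 10.8% and 9.41%. The read-based table gave Cnr1-202 more, at 18.4% and 24.7%, and Cnr1-201 67.4% and 61.7%. The non-coding Cnr1-203 shares the first exon of Cnr1-201 and held 6.99% and 6.90%, or 14.3% and 13.6% by reads. In both tables and both mice the upstream first exon led.

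Dagla was carried almost wholly by Dagla-201, at 98.4% in replicate 1 and 97.8% in replicate 2. In Daglb the only coding transcript, Daglb-201, held 89.2% and 82.5%, and 3 retained-intron transcripts held 10.8% and 17.5% together (14.8% and 22.1% by reads). The largest of these, Daglb-204, held 5.99% and 10.2%. The coding transcript of Daglb alone had a TPM of 10.4 and 11.9, so it too was higher in replicate 2. The 3′ end of Daglb shares 2309 bases with Rac1 on the opposite strand, a more abundant gene with 5098 and 4640 counts. The labels name stranded libraries, but whether strand was used in the counting is not stated, so the level of Daglb is uncertain to that extent.

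Mgll has alternative starts, and these are shown because its leading transcript depended on the table. Mgll-204 begins with the upstream first exon (chr6:88724412-88724571), while Mgll-201 (first exon chr6:88724828-88725178) and Mgll-207 (chr6:88724704-88725178) begin downstream of it. The coding sequence of Mgll-204 is identical to that of Mgll-201, with 909 bases. Mgll-207 adds 48 bases, or 16 codons, at its start and is identical from there on. The first coding bases of both forms follow, with the start codons in capitals, the second of which in Mgll-207 is the one that Mgll-204 and Mgll-201 use.
Mgll-204: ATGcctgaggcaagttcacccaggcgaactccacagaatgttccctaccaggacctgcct
Mgll-207: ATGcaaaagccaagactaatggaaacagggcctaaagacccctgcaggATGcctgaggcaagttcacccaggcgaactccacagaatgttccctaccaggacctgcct

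In the alignment-based table Mgll-204 led with 52.8% in replicate 1 and 50.6% in replicate 2, ahead of Mgll-201 (18.7% and 23.6%) and Mgll-207 (21.1% and 11.0%). In the read-based table Mgll-201 led with 46.8% and 50.1%, against 19.8% and 18.5% for Mgll-204 and 15.6% and 13.3% for Mgll-207. The tables thus reversed the order of these starts, and each table had the same leader in both mice. By alignment Mgll-207 ranked above Mgll-201 in replicate 1 and below it in replicate 2. Summed by first exon, transcripts beginning with that of Mgll-204 held 57.0% and 57.8% by alignment and 32.7% and 31.6% by reads. The deposited interval of Mgll-201 in replicate 1 was wide, from a TPM of 2.28 to 21.6. The sum over the coding sequence that Mgll-204 and Mgll-201 share was steadier, at 71.6% and 74.2% by alignment and 66.6% and 68.6% by reads. An antisense gene, Gm26588, covers the first exons of Mgll-204, Mgll-201 and Mgll-207, with 45 and 48 counts against the 5818 and 5054 of Mgll.

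The 250 bases before the Mgll-204 start are shown as the sequence before the upstream first exon (chr6:88724162-88724411, plus strand, from RefSeq in GRCm38.p6, the build also called mm10). Capitals mark CACGTG, an E box that reads the same on both strands. Besides this motif, the window was searched on both strands for the GC box (GGGCGG) and the TATA box (TATAAA). It was also searched for the CCAAT box and for the cyclic AMP response element (TGACGTCA). The E box was the only match, so no overlap between motifs arose.
Mgll-204 promoter: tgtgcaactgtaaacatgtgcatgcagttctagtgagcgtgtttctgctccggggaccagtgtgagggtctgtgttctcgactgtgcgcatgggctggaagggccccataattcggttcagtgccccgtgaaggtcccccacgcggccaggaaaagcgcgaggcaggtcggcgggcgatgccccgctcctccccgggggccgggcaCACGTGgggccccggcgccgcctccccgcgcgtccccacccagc

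CACGTG occurs in 6.02% of 32851 such windows. Among the members it is not particular to Mgll, since the window nearest the Cnr1-201 start (chr4:33924394-33924643) also holds it. The Mgll window holds 23 CpG dinucleotides, against a median of 6, and has no TATAAA, which 12.4% of the windows hold. The window before the Mgll-207 start, not printed because it overlaps the first exon of Mgll-204, has 40 CpG dinucleotides, 1 GC box and no CACGTG. Read-based shares put 67.3% of Mgll in replicate 1 and 68.4% in replicate 2 on the downstream first exon. The search describes letters only and measured no binding.

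**Figure D4:**
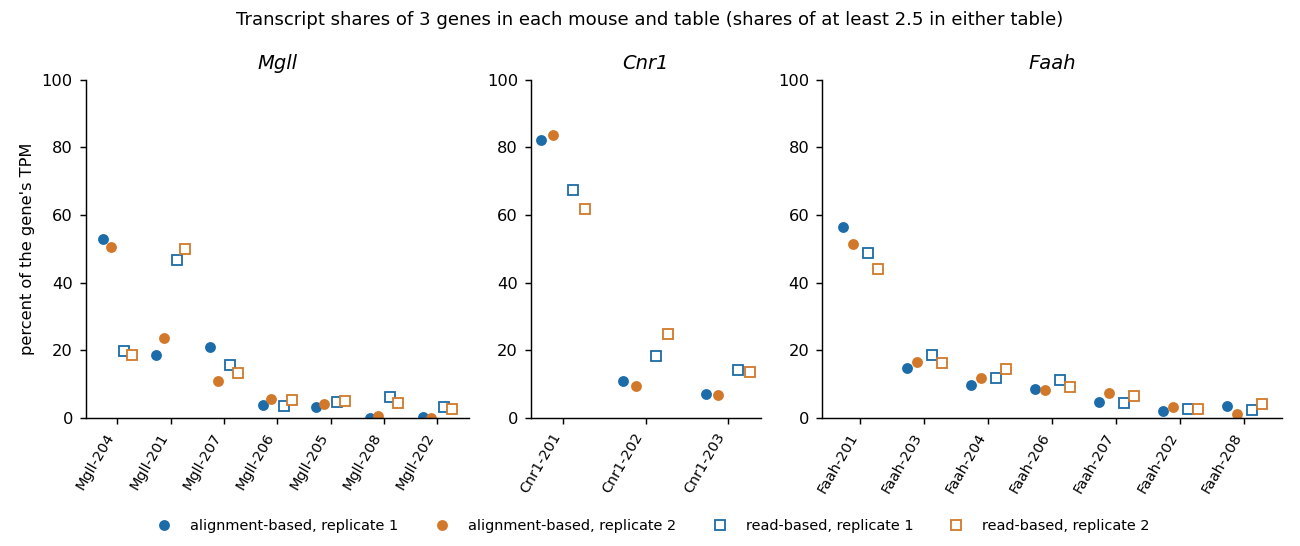
Percent of the gene's TPM on each transcript of Mgll, Cnr1 and Faah with a share of at least 2.5 in either table, for replicate 1 (blue) and replicate 2 (orange), by alignment (filled circles) and by reads (open squares). Mgll-204 leads by alignment and Mgll-201 by reads in both mice, while Cnr1-201 and Faah-201 lead in both tables.

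For the other 2-AG hydrolases the leading transcript was stable. Abhd12-201 held 78.4% in replicate 1 and 79.6% in replicate 2 (82.0% and 84.0% by reads). Abhd12-207, annotated as a processed transcript and starting far inside the gene, held 16.2% and 16.0% (9.63% and 7.22% by reads). Abhd6-202 held 68.5% and 77.6%, and Abhd6-201, which has the same coding sequence of 1008 bases, held 25.5% and 22.4%. The read-based table split the Abhd6 pair more evenly, at 55.4% and 58.4% against 44.6% and 41.6%.

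Napepld has 2 transcripts with the same coding sequence of 1188 bases. Napepld-202 held 100% in replicate 1 and 89.1% in replicate 2, and 67.8% and 94.0% by reads, so its share in replicate 1 depended on the table. The split rests on few reads, since Napepld-201 had 0 and 49.7 expected counts.

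Faah had the smallest protein-coding share of the 8 genes in both tables. The coding Faah-201 held 56.6% in replicate 1 and 51.3% in replicate 2, and 48.6% and 44.1% by reads. These are shares of TPM, which weighs short transcripts more than counts do. By expected counts Faah-201 held a larger part, with 1657 of 2321 in replicate 1 and 1458 of 2265 in replicate 2. Transcripts annotated with a retained intron, 5 of the 8 of this gene, held 33.6% and 36.8% together, and 39.4% and 38.9% by reads. Among 7504 expressed genes that have a transcript of this class, 86.6% held a smaller share in the alignment-based table. The largest of the 5 in Faah by TPM was Faah-203 (14.9% and 16.4%), a short model of 790 bases from the end of the gene. By expected counts it was not the largest. It had 80.6 in replicate 1 and 86.5 in replicate 2, below Faah-207, another of the 5, with 204 and 311. Faah-206, also with a retained intron, held 8.54% and 8.35% (11.2% and 9.22% by reads), and Faah-204, annotated as a processed transcript, held 9.85% and 11.8%.

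The kept intron of Faah-203 is shown because it separates Faah-203, the largest of these transcripts by TPM though not by count, from the coding one. It is the intron of 205 bases between exons 14 and 15 of Faah-201 (chr4:115998616-115998820 in mm10, minus strand). The first line joins exon 14 (lower case) to exon 15 (capitals) as spliced in Faah-201. The second line runs from exon 14 into the intron (capitals) in Faah-203, and the third from the end of that intron (capitals) into exon 15.
Faah-201 junction: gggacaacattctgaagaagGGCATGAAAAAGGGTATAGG
Faah-203 donor side: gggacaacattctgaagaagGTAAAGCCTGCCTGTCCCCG
Faah-203 acceptor side: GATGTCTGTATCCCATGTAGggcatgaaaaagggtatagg

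Counted on protein-coding transcripts only, a choice made after the data were seen, Faah had a TPM of 22.6 in replicate 1 and 21.3 in replicate 2, below Abhd6 with 34.8 and 32.6. All 7 neighbours in the order, again set by the same values, were then apart, with Abhd12 still first (104 in both mice) and Napepld last (6.19 and 6.81). Faah over Napepld was then 1.61 on the log2(TPM + 1) scale. Faah remained above Napepld in both mice.

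The wider pathway was read from 31 further genes, of which 22 were expressed in both mice, against 58.6% of all protein-coding genes. The role groups are small and were chosen with earlier results known, so their counts describe the listed genes only. The other cannabinoid-related receptors and the channel Trpv1 stood apart, with 0 of 5 expressed. Cnr2, which encodes the CB2 receptor of immune cells, had 3 counts in replicate 1 and 4 in replicate 2, against the 6500 and 5196 of Cnr1. Gpr55 had 4 and 2, Trpv1 had 5 and 2, and Gpr18 had 0 and 2. Gpr119 had 0 in both, and a count of 0 allows up to 3 counts in a library. At this depth these 5 genes were at or near the limit of detection.

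Most of the listed supply and signalling genes around the members passed a TPM of 1 in both mice. All 4 phospholipase C beta genes, which release diacylglycerol, passed, with Plcb1 highest (85.3 in replicate 1 and 86.4 in replicate 2) and Plcb2 lowest (1.38 and 1.49). Of 6 genes of other routes to N-acylethanolamines 4 passed, led by the phosphodiesterase Gde1 at 121 and 114, far above Napepld. Ptpn22, a phosphatase, was lowest at 0.38 and 0.71, and Gdpd3 (0.61 and 1.31), named after its values were seen, was the other that did not pass. All 8 CB1 partners and Gi/o subunits passed, with Gnao1, the G protein subunit Go, highest at 318 and 327 and Gnai3 lowest at 12.7 and 11.9.

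Other enzymes that hydrolyse or oxidise endocannabinoids ranged from near 0 to moderate levels. Of 5 such genes 3 passed, led by Naaa, the acid amidase of N-acylethanolamines, at 18.2 in replicate 1 and 17.3 in replicate 2. The lipoxygenases Alox12 (0.09 and 0.19) and Alox15 (0.02 and 0.17) were under 1 in both mice. Ptgs2, the cyclooxygenase COX-2, was singled out after its values were seen, as the only one of 21 of these genes with enough counts to pass a log2 ratio of 0.5 between the mice. Over all 11728 genes that share was 2.26%. Ptgs2 had 736 counts in replicate 1 and 449 in replicate 2, and a log2 ratio of 0.68 (0.51 to 0.85). All 3 intracellular fatty acid-binding carriers passed, from Fabp3 (66.1 and 62.1) to Fabp7 (28.5 and 22.2).

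**Figure D5:**
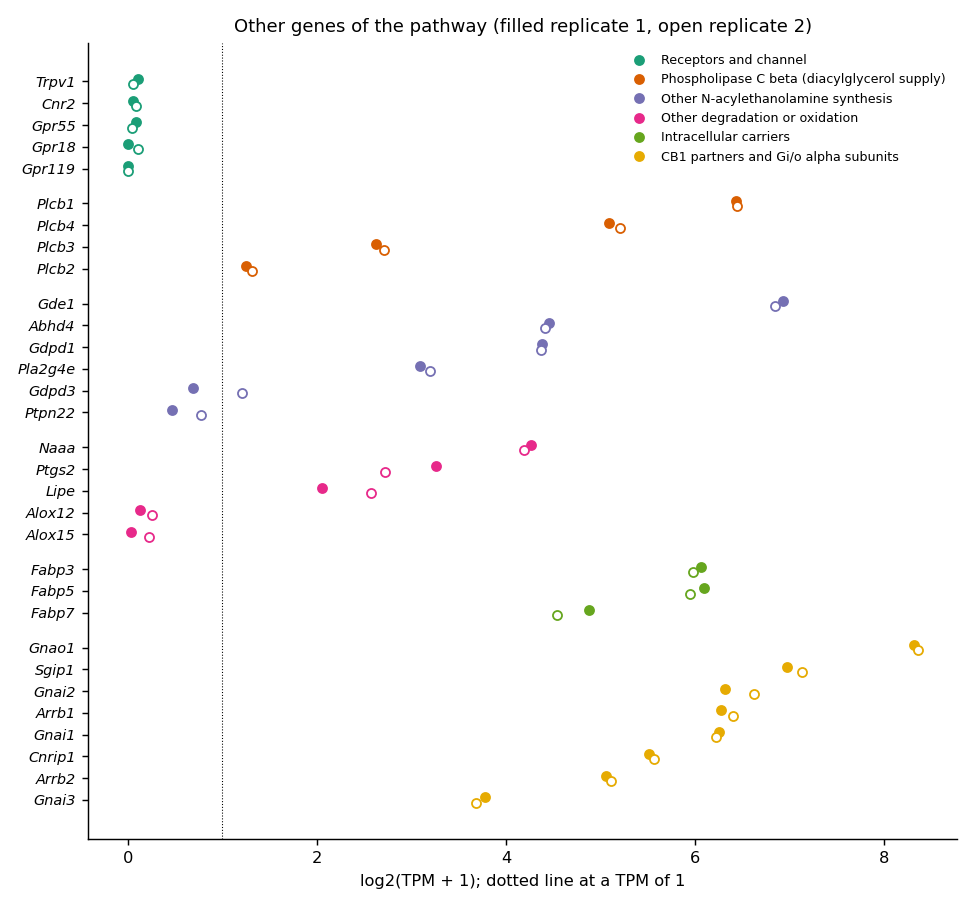
Level of 31 further pathway genes as log2(TPM + 1), grouped by role, with replicate 1 filled and replicate 2 open. The dotted line marks a TPM of 1, which none of the 5 receptor and channel genes reached and all 8 CB1 partners and Gi/o subunits passed.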

How the data were processed

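For each library the authors deposited a gene table and a transcript table made from a transcriptome alignment, and a transcript table made directly from the reads (the alignment-based and read-based tables) (genome mm10 and annotation GENCODE M21, per the deposited listing). Which aligner and quantifier were used, and whether strand was, is not given in the sources used here. Per the file headers, the deposited values are expected counts (estimated reads, not normalized), TPM over all rows, with spike-ins and tRNAs, the percent of the gene's TPM that each transcript holds, and bounds of a TPM interval whose level is not stated.

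The 8 genes, the other gene lists and the pairs were chosen with earlier results of these data known. Expressed means that both mice reached a TPM of 1. Pairs of genes were compared as differences of log2(TPM + 1) within a mouse, and set against a bound, the absolute difference between mice that 95% of genes stayed within, in 20 bins of abundance. Ratios between the mice used expected counts rounded to whole numbers for TMM factors (edgeR 4.0.16 in R 4.3.3, after filterByExpr), with a prior count of 0.5, an exact binomial interval at 95% and 20 bins of mean count. Read-based values were summed per gene. TPM is a share of all RNA in the library, and nuclear protein-coding genes held 45.0% and 45.5% of it. Total counts of 29915463 and 27988085 set the precision. Only the scaling and the ratio between the mice were tested on simulated gene counts.

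Named are all 8 members, their transcripts with at least 10% of the gene's TPM or the lead in either table, and, of the other pathway genes, the highest and lowest of each role and those under a TPM of 1 in both mice. Alternatives were the read-based table, TPM rescaled to nuclear protein-coding genes, TPM thresholds of 0.1 and 5, a pseudocount of 0.1, scaling by spike-in totals, library totals or the size factors of DESeq2 1.42.0, no filter, each mouse alone, transcripts ranked by count and protein-coding transcripts only. RefSeq promoter windows (GRCm38.p6) were matched by symbol for 6 of 8 members, not Dagla and Abhd12. Other steps ran in Python 3.11.15 (pandas 2.3.3, numpy 2.4.6, scipy 1.17.1), with figures from matplotlib 3.10.9. Some marker genes are not reported here, though the counts of markers include them.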

Additional observations from a re-analysis of the deposited data

How the results depend on the processing

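Of the values recomputed for the main comparisons under the alternatives, 58 kept their direction and stayed within the SD of the mice or within 1.5 times the count, 10 moved further and 1 reversed. The 58 include the ratios of gene pairs without 1 of the mice, which say nothing of stability, since with 2 mice each lies within 1 SD of the mean by construction. Detection of the 8 members at a TPM of 0.1, in each mouse alone or with rescaled TPM could not have come out otherwise either. The order of levels was compared only by its number of pairs apart. It counts as kept although Faah changed place in the read-based table and with protein-coding transcripts only. The median log2 ratio of the members between the mice reversed with spike-in totals, to -0.30, and 1 member, Daglb at -0.61, then passed a log2 ratio of 0.5. The read-based table gave Mgll over Abhd12 as -0.54, Mgll over Dagla as 1.22 and Faah over Napepld as 2.65 on the log2(TPM + 1) scale. Faah over Napepld was 2.57 with rescaled TPM and 2.63 with a pseudocount of 0.1. With protein-coding transcripts only, which was chosen after seeing the data, Mgll over Abhd6 was 1.21, Mgll over Abhd12 -0.39, Mgll over Dagla 0.94 and Faah over Napepld 1.61. The cause of these shifts was not tested. All 8 member levels moved in the read-based table and with rescaled TPM. The order of levels could not be recomputed from 1 mouse, since a single mouse gives no overlap. No paired analysis was possible because there is 1 group. Depth limits the 5 receptor and channel genes at a TPM under 1 and the split of Napepld between its transcripts.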
